A study of Homo sapiens with 9 samples.

Results

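The genes described here are 10 components of transforming growth factor-β (TGF-β) signalling: the ligands TGFB1, TGFB2 and TGFB3, the receptors TGFBR1, TGFBR2 and TGFBR3, the intracellular transducers SMAD2 and SMAD3, the inhibitory SMAD7, and TGFBI, a secreted matrix protein named for its induction by TGF-β. They are 10 of the 47753 gene names on the array, and each was read by 1 probe, out of 58201 probes in all. The set was chosen by the measured differences of TGFB2 from the control, which was lower in both knockdowns, so those differences are described without a test. The other 9 genes were taken by name as the rest of the family.

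The cells were OEC-M1, an established line from a head and neck squamous cell carcinoma of the mouth, and every group was kept at 1% O2 for 18 h, so no group with normal oxygen is compared. Cells were transfected for 72 h with a non-targeting siRNA (si-Control), an siRNA against GATA3 (GATA3 knockdown) or an siRNA against HIF-1α (HIF-1α knockdown), with 3 arrays in each group. GATA3 is a zinc finger transcription factor, and HIF-1α is the oxygen-regulated subunit of the hypoxia-inducible factor HIF-1. Each knockdown is compared with si-Control in a single cell line, and the effect of an siRNA and that of losing its target cannot be told apart in this design. The labels do not say that arrays of a group came from separate cultures, so P values measure the spread between these arrays, which may be technical.

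TGF-β ligands are secreted in a latent form and, once released, bring together a type II receptor (TGFBR2) and a type I receptor (TGFBR1), 2 membrane kinases. TGFBR3, also called betaglycan, is a co-receptor that presents ligand, above all TGF-β2, to the kinase receptors. The type I receptor phosphorylates SMAD2 and SMAD3, which enter the nucleus with SMAD4, while SMAD7 blocks the receptor in a feedback loop. In carcinoma cells the pathway is known both for growth arrest and for epithelial-mesenchymal transition.

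The start-site regions of the gene that defined the set and of the other member that differed from si-Control are shown because the silenced proteins are DNA-binding factors. Both are RefSeq sequences (GRCh38.p14, plus strand, 5′ to 3′) of the 250 bases before an annotated start. Capitals mark ACGTG, 1 of the 2 forms of the core of a hypoxia response element (the other is GCGTG), on either strand (CACGT when it lies on the other strand).
TGFB2, chr1:218345086-218345335: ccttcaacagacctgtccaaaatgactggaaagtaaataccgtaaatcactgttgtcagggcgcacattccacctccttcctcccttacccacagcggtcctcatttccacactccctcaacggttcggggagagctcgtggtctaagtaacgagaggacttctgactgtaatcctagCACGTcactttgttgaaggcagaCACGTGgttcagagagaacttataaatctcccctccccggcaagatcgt
TGFBR2, chr3:30606106-30606355: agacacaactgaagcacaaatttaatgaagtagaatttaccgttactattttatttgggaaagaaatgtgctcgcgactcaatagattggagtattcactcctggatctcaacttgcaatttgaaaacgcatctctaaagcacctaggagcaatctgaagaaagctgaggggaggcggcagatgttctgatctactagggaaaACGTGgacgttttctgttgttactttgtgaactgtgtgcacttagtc

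The TGFB2 window held 3 matches to ACGTG, 72, 49 and 48 bases before the start, of which the last 2 are the overlapping strands of a single palindrome. The first TGFBR2 window held 1 match, 47 bases before the start, and a second annotated TGFBR2 start (chr3:30606351-30606600) held none. None of these windows held GCGTG, or GATA, the letters bound by GATA factors, on either strand. All 10 genes had windows in the table, 26 in total since several genes have more than 1 start, and 7 of the 26 held ACGTG against 18.5% of all 35116 human windows of the same length. GCGTG was present in 13 of the 26 against 32.2%. Some windows of TGFBR1 overlap, so the same GCGTG site can be counted more than once. GATA was present in 9 of the 26 windows against 45.6% of all windows. These are matches of letters, and no binding was measured.

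The knockdowns and arrays were checked first. GATA3 had a log2 intensity of 10.71, 11.12 and 11.48 in si-Control and 9.64, 9.48 and 10.40 in GATA3 knockdown, a difference of -1.27. HIF1A, which encodes HIF-1α, was 16.71, 16.24 and 17.24 in si-Control and 14.51, 14.13 and 14.59 in HIF-1α knockdown, a difference of -2.32. Neither silenced gene overlapped its control. The differences of HIF1A in GATA3 knockdown and of GATA3 in HIF-1α knockdown were -0.05 and -0.37. The median spot intensity ran from 992.5 to 3560 over the 9 arrays, and 74.3% to 88.5% of probes were well above background by the scanner software's own mark. That share was 86.3% to 88.5% in si-Control, 74.3% to 83.7% in GATA3 knockdown and 80.8% to 87.5% in HIF-1α knockdown. The mark does not by itself show expression. On every array it was carried by 7 of 9 squamous and epithelial markers, while KRT5 carried it on 0. It was also carried on every array by 3 of 3 endothelial and 3 of 3 leukocyte markers that a pure cell line should lack. The same held for 1 of 5 fibroblast markers. These probes were not all dim: group means ran from 9.77 to 9.96 for PECAM1, but from 16.13 to 16.62 for PTPRC. The cause was not tested. Of the 10 genes described, 8 were well above background on all 9 arrays, SMAD2 on 7 and TGFBR1 on 4. The numbers below are log2 intensities after quantile normalization, on which 1 unit is a doubling, and intensities of different probes are not compared.

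**Figure D1:**
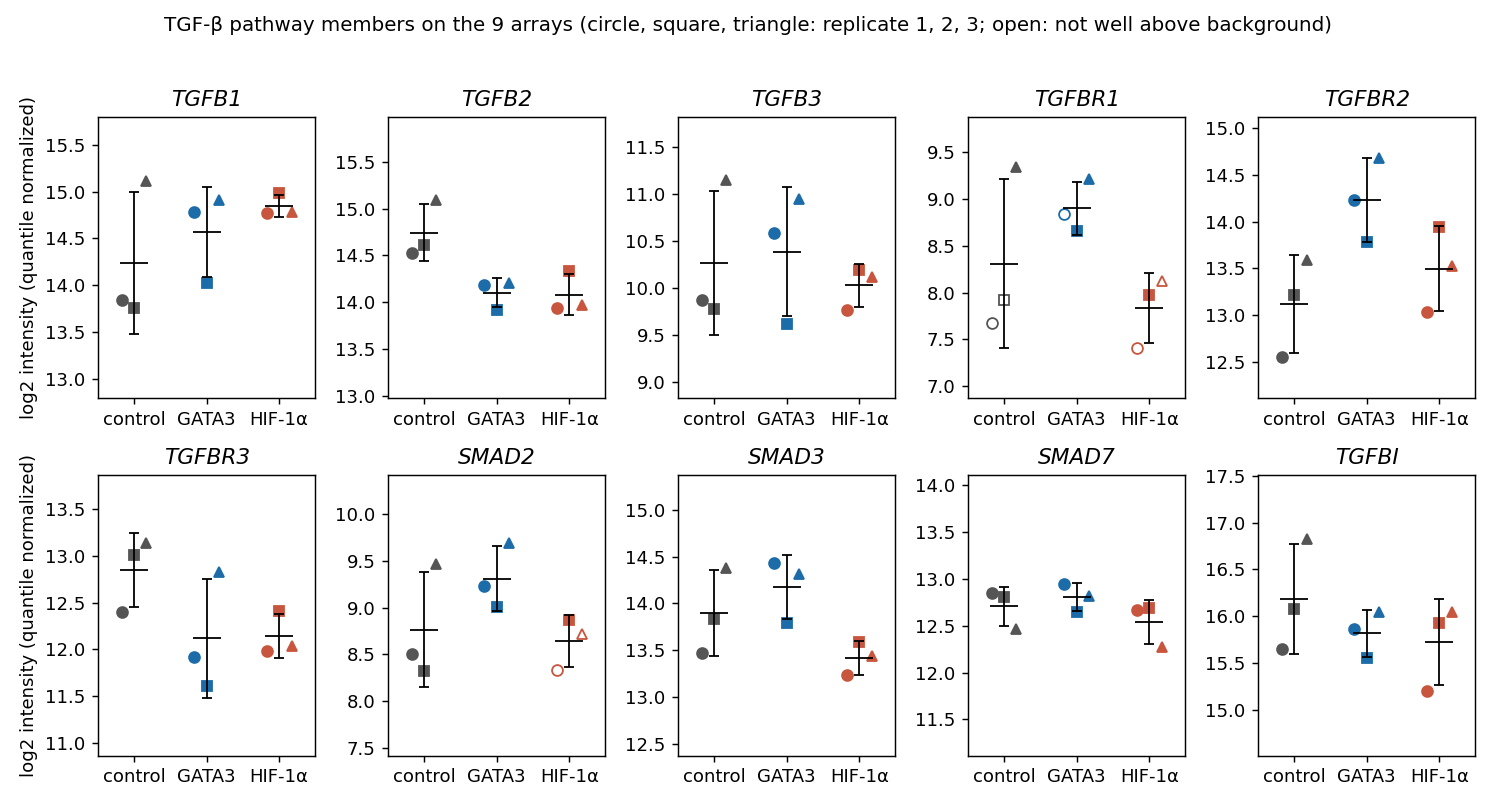
Log2 intensity (vertical axis, each panel spanning 3 units) of the 10 genes on the 9 arrays, with 1 point for each array and black bars for the mean and SD of a group. TGFB2 is lower on all 6 knockdown arrays than on any si-Control array, TGFBR2 is higher on all 3 GATA3 knockdown arrays, and si-Control replicate 3 is the highest control array for 9 of the 10 genes.

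TGFB2 was lower in both knockdowns, by about the same amount. In si-Control its log2 intensity was 14.53, 14.61 and 15.09 on replicates 1, 2 and 3. It was 14.18, 13.92 and 14.21 in GATA3 knockdown and 13.94, 14.33 and 13.97 in HIF-1α knockdown. Neither knockdown overlapped the control group, and the lowest control array, 14.53, stood above the highest knockdown array, 14.33. The difference from si-Control was -0.64 ± 0.25 (standard error) in GATA3 knockdown, which is 1.56-fold lower, and -0.66 ± 0.25 in HIF-1α knockdown, which is 1.58-fold lower. These are the values that chose the set. In bulk RNA such a difference cannot be divided between fewer expressing cells and less RNA per cell.

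Each slide held 1 array of each group, so the differences can also be read within slides. For TGFB2 they were -0.34, -0.69 and -0.88 in GATA3 knockdown and -0.58, -0.29 and -1.12 in HIF-1α knockdown, lower on all 3 slides both times. Slide 3 gave the widest gap in both, and it holds the highest control value. Without si-Control replicate 3 the differences were -0.46 and -0.49. Both knockdowns are measured against the same 3 control arrays, so the 2 differences are not independent of each other.

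Between the knockdowns TGFB2 is also described without a test, since its low values in both groups chose the set. It was 14.10 ± 0.16 (SD, n = 3) in GATA3 knockdown and 14.08 ± 0.21 (SD, n = 3) in HIF-1α knockdown. The difference was 0.02 with a 95% interval from -0.53 to 0.57, and the groups overlapped.

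TGFB1, the most widely expressed of the ligands, was on average higher in both knockdowns, without passing the test. Its log2 intensity was 13.84, 13.76 and 15.11 in si-Control, 14.78, 14.02 and 14.91 in GATA3 knockdown and 14.77, 14.98 and 14.78 in HIF-1α knockdown. One control array, replicate 3, lay above the HIF-1α knockdown arrays, while the other control arrays lay below them, so the groups overlapped. An unadjusted P of 0.05 was the threshold of the study's methods and is the one meant by passing. The TGFB1 difference was 0.34 in GATA3 knockdown (95% interval from limma -0.52 to 1.20) and 0.61 in HIF-1α knockdown (-0.25 to 1.47). Without si-Control replicate 3 they were 0.78 and 1.05 and both passed, so 1 control array decided the call. That array had the lowest median spot intensity of all, 992.5. It was the highest control array for 9 of the 10 genes, SMAD7 being the exception, and for 43.7% of all 43878 genes with a value on each control array.

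TGFB3, the third ligand, showed a wide spread. It was 9.87, 9.77 and 11.15 in si-Control, 10.59, 9.62 and 10.95 in GATA3 knockdown and 9.77, 10.19 and 10.12 in HIF-1α knockdown. All groups overlapped, and the differences were 0.12 (95% interval -0.85 to 1.09) and -0.24 (-1.21 to 0.73).

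Among the receptors, TGFBR2, the type II kinase that binds ligand, was higher in GATA3 knockdown. Its log2 intensity was 12.55, 13.22 and 13.59 in si-Control and 14.23, 13.78 and 14.68 in GATA3 knockdown, so all 3 knockdown arrays lay above all control arrays. The difference was 1.11 ± 0.36 (standard error, 95% interval 0.30 to 1.92), which is 2.16-fold higher, and it was 1.68, 0.56 and 1.09 on the 3 slides. TGFBR2 was the only 1 of the 9 tested genes to pass an unadjusted P of 0.05 in this comparison, against 2.97% of all genes tested, 1.59% being higher and 1.38% lower. With the slide as a block 2 of the 9 passed, TGFBR2 and TGFBR3, against 4.99% of all genes. No gene on the array passed after Benjamini-Hochberg adjustment (adjusted P = 1 for TGFBR2 by limma), and TGFBR2 also missed the unadjusted threshold without GATA3 knockdown replicate 3, where the difference was 0.89, and by the methods' t-test. In HIF-1α knockdown TGFBR2 was 13.03, 13.94 and 13.52, a difference of 0.38 from si-Control (95% interval -0.43 to 1.19), with overlapping groups. The knockdowns differed from each other by 0.73 (95% interval -0.07 to 1.54), and did not pass. That contrast passed with the slide as a block and without replicate 2 of GATA3 knockdown (0.96) or of HIF-1α knockdown (0.95).

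TGFBR3, the co-receptor for TGF-β2, was lower on average in both knockdowns, like TGFB2. It was 12.40, 13.01 and 13.14 in si-Control, 11.92, 11.61 and 12.83 in GATA3 knockdown and 11.98, 12.41 and 12.04 in HIF-1α knockdown. Within slides every difference was negative, yet the groups overlapped, by GATA3 knockdown replicate 3 in one case and by HIF-1α knockdown replicate 2 in the other. The differences of -0.73 (95% interval -1.5 to 0.05) and -0.70 (-1.48 to 0.07) did not pass. With the slide as a block TGFBR3 passed in GATA3 knockdown only, and without si-Control replicate 1 it passed in both, at -0.95 and -0.93. Without GATA3 knockdown replicate 3 it also passed in both, at -1.08 and -0.70. TGFBR3 differed by -0.02 between the knockdowns (95% interval -0.80 to 0.75).

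TGFBR1, the type I kinase, was dim. Its signal cleared the background on 1 array of si-Control, 2 of GATA3 knockdown and 1 of HIF-1α knockdown. Its log2 intensity was 7.67, 7.92 and 9.34 in si-Control, 8.84, 8.65 and 9.21 in GATA3 knockdown and 7.41, 7.98 and 8.12 in HIF-1α knockdown. Neither knockdown passed against si-Control, with differences of 0.59 (95% interval -0.35 to 1.53) and -0.48 (-1.41 to 0.46) on opposite sides of it. Without si-Control replicate 3 the difference in GATA3 knockdown was 1.11 and passed. That in HIF-1α knockdown was then 0.04, so the knockdowns no longer lay on opposite sides.

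**Figure D2:**
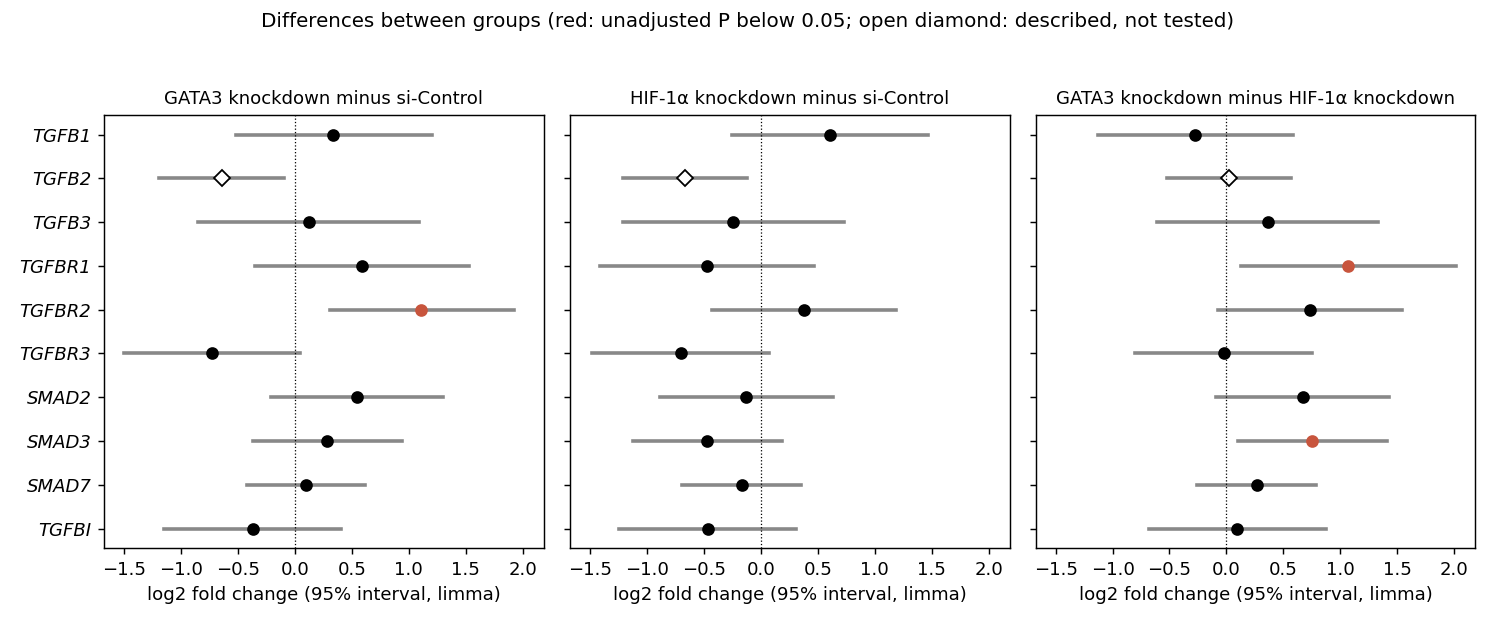
Log2 fold change of each gene (points) with its 95% interval from limma (grey lines) in the 3 comparisons. TGFBR2 passed in GATA3 knockdown with 1.11, none of the 9 tested genes passed in HIF-1α knockdown, and TGFBR1 (1.07) and SMAD3 (0.75) passed between the knockdowns.

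In HIF-1α knockdown 0 of the 9 tested genes passed the unadjusted threshold by limma, against 5.23% of all genes (1.95% higher and 3.28% lower), and 0 passed by the methods' t-test. With array brightness (the median log2 signal) as a covariate TGFB1 (1.09) and TGFBR2 (0.82) passed in HIF-1α knockdown, and TGFBR1 (0.57), TGFBR3 (-0.74) and SMAD2 (0.53) joined TGFBR2 in GATA3 knockdown. Without TGFB2, the median difference of the other 9 genes was -0.24 in HIF-1α knockdown and 0.28 in GATA3 knockdown, while the medians over all genes tested were -0.01 and -0.02. In HIF-1α knockdown 7 of the 9 lay below si-Control, and in GATA3 knockdown 7 of the 9 lay above it. The count in HIF-1α knockdown depended on si-Control replicate 3. Without that array TGFB3 (0.20), TGFBR1 (0.04) and SMAD2 (0.225) lay above si-Control in HIF-1α knockdown. Among these 9 the groups of GATA3 knockdown and si-Control did not overlap for TGFBR2 alone, against 7.60% of all genes (3.99% lower and 3.61% higher). In HIF-1α knockdown the groups overlapped for all 9, while 16.2% of all genes did not overlap (8.79% lower).

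SMAD2 and SMAD3, the transducers phosphorylated by the type I receptor, were measured on either side of si-Control as well. SMAD3 was 13.47, 13.83 and 14.38 in si-Control, 14.43, 13.79 and 14.31 in GATA3 knockdown and 13.23, 13.59 and 13.44 in HIF-1α knockdown. Neither knockdown passed against si-Control (0.28, 95% interval -0.37 to 0.94, and -0.47, -1.12 to 0.19). SMAD2 was 8.51, 8.32 and 9.47 in si-Control, 9.23, 9.01 and 9.69 in GATA3 knockdown and 8.33, 8.87 and 8.72 in HIF-1α knockdown. The SMAD2 probe cleared the background on every array of si-Control and GATA3 knockdown but on only 1 of HIF-1α knockdown. Its differences from si-Control were 0.54 (95% interval -0.21 to 1.3) and -0.13 (-0.88 to 0.63). Without si-Control replicate 3 the first was 0.90 and passed, and the second was 0.225, so both lay above si-Control.

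SMAD7, the inhibitory SMAD and itself a TGF-β target, varied least. It was 12.85, 12.81 and 12.47 in si-Control, 12.95, 12.65 and 12.82 in GATA3 knockdown and 12.67, 12.69 and 12.27 in HIF-1α knockdown. The differences of 0.10 (95% interval -0.42 to 0.62) and -0.17 (-0.69 to 0.35) did not pass, and the groups overlapped. TGFBI was 15.65, 16.08 and 16.82 in si-Control, 15.86, 15.55 and 16.04 in GATA3 knockdown and 15.20, 15.93 and 16.04 in HIF-1α knockdown. It differed by -0.37 (95% interval -1.15 to 0.41) and -0.46 (-1.24 to 0.31), and was lower on all 3 slides in HIF-1α knockdown alone.

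The direct comparison of GATA3 knockdown with HIF-1α knockdown, found TGFBR1 and SMAD3 higher in GATA3 knockdown. The difference itself takes no si-Control value, but the si-Control arrays enter the normalization and the shared estimate of spread. TGFBR1 was 1.07 higher (95% interval 0.13 to 2.01, limma adjusted P = 0.396), with differences of 1.43, 0.68 and 1.09 on the slides. The probe cleared the background on 2 arrays of the first group and 1 of the second, and its difference ran from 0.48 to 1.89 over the alternatives, so its size is loosely set. SMAD3 was 0.75 higher (1.69-fold, 95% interval 0.10 to 1.41, limma adjusted P = 0.393), with 1.20, 0.20 and 0.86 on the slides. SMAD2 differed by 0.67 (95% interval -0.09 to 1.43) and did not pass, with 0.90, 0.15 and 0.97 on the slides. For TGFBR1, SMAD2 and SMAD3 every GATA3 knockdown array lay above every HIF-1α knockdown array, 3 of the 10 genes, where 25.4% of all genes did not overlap in either direction and 12.1% were higher without overlap.

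Passing the unadjusted test were 2 of the 10 genes, TGFBR1 and SMAD3, both higher in GATA3 knockdown. That is 20%, or 22.2% of the 9 without TGFB2, set against 12.0% of all genes passing in either direction, 6.93% higher and 5.05% lower. After adjustment 0.00422% of all genes passed and none of the 10. Both calls were lost without some single arrays. Neither gene passed without GATA3 knockdown replicate 1 (1.1 for TGFBR1 and 0.63 for SMAD3), without GATA3 knockdown replicate 3 (0.91 and 0.69) or without HIF-1α knockdown replicate 1 (0.85 and 0.66). SMAD3 also missed without HIF-1α knockdown replicate 3 (0.76). That difference, and the one of TGFBR1 without GATA3 knockdown replicate 1, were no smaller than with all arrays. The knockdowns differed in median spot intensity, which was 1410 to 2452 in GATA3 knockdown and 2132 to 3560 in HIF-1α knockdown. With that brightness in the model the differences were 0.48 for TGFBR1 and 0.40 for SMAD3 and did not pass, while TGFB1 passed at -0.78. With the slide as a block SMAD2 and TGFBR2 passed too, at the same differences, where 18.7% of all genes passed, and SMAD2 also passed without si-Control replicate 3.

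**Figure D3:**
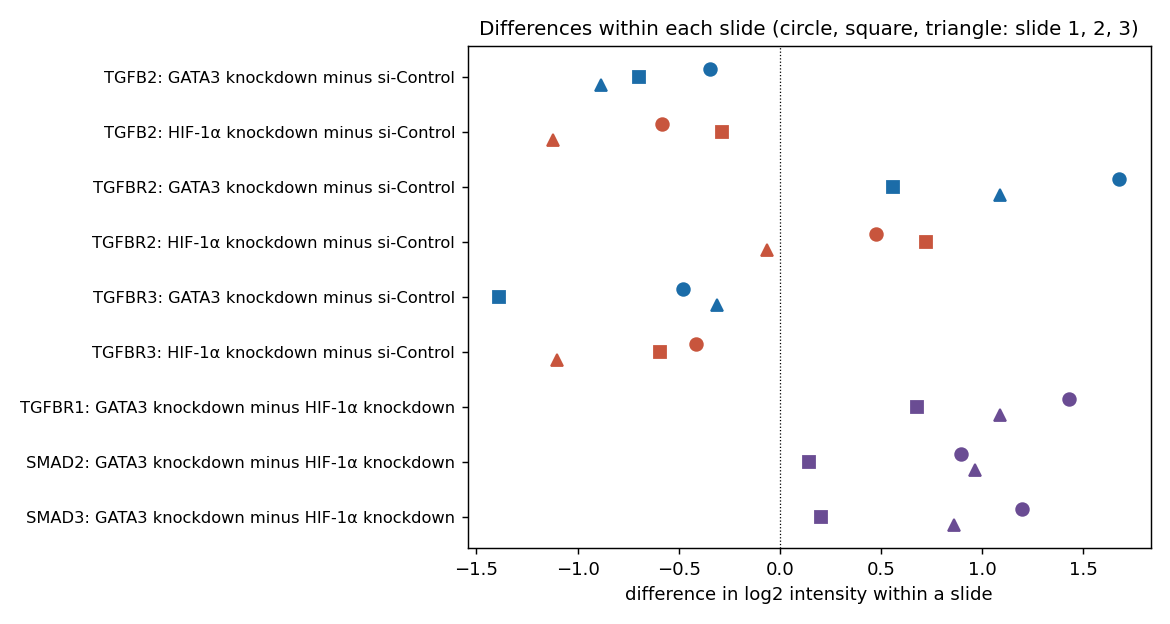
Difference in log2 intensity between 2 groups on the same slide (horizontal axis), with 1 point for each of the 3 slides. All TGFB2 and TGFBR3 points against si-Control are negative, from -0.29 to -1.39, the TGFBR2 points in GATA3 knockdown are all positive, and SMAD2 and SMAD3 differ least on slide 2.

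The pathway around the 10 genes was read from a list of 82 further genes, of which 81 were measured. It holds latency proteins, antagonists, activin and bone morphogenetic protein (BMP) ligands and receptors, other SMADs, SMAD regulators, response genes and the loci beside TGFB2. In GATA3 knockdown 7 of the 81 passed, 4 higher and 3 lower, which is 8.64% where all genes gave 2.97%. In HIF-1α knockdown 4 passed, 1 higher and 3 lower, or 4.94% where all genes gave 5.23%. With the slide as a block 14 of the 81 passed in GATA3 knockdown (4.99% of all genes) and 10 in HIF-1α knockdown (8.41%). None of the 81 passed after adjustment in either comparison by limma.

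The response genes described here did not share a direction. SNAI1 and ZEB1, transcription factors of epithelial-mesenchymal transition, were higher in GATA3 knockdown by 0.84 (95% interval 0.09 to 1.59) and 0.69 (0.00 to 1.39), both with overlapping groups, and SNAI1 passed in 5 and ZEB1 in 2 of the 9 fits that left out an array. FN1, which encodes the matrix protein fibronectin, was 17.97, 17.99 and 17.63 in si-Control and 16.36, 17.35 and 17.07 in HIF-1α knockdown, a difference of -0.94 (-1.6 to -0.29). FN1 was 16.95, 17.34 and 17.38 in GATA3 knockdown, which was -0.64 from si-Control (-1.3 to 0.01). ID3, a BMP- and TGF-β-regulated inhibitor of basic helix-loop-helix factors, was 11.73, 11.33 and 12.03 in si-Control and 12.66, 13.32 and 12.65 in HIF-1α knockdown, 1.18 higher (0.56 to 1.81), against -0.14 (-0.77 to 0.48) in GATA3 knockdown. Of the 26 response genes, 3 passed as higher and 0 as lower in GATA3 knockdown, and 1 passed each way in HIF-1α knockdown.

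Of the secreted components, INHBB, a subunit of activin B, was lower in GATA3 knockdown. It was 12.99, 12.39 and 12.09 in si-Control, 11.40, 11.30 and 10.92 in GATA3 knockdown and 12.70, 12.88 and 11.98 in HIF-1α knockdown. The difference was -1.28 (95% interval -2.01 to -0.56) in GATA3 knockdown, without overlap, and 0.02 (-0.70 to 0.75) in HIF-1α knockdown. DCN, a proteoglycan that binds TGF-β, passed in GATA3 knockdown at -1.08, with its signal clear of the background on 1 of the 3 knockdown arrays, and a second, dimmer DCN probe gave -0.29. ITGB8, an integrin subunit that takes part in activating latent TGF-β, passed at -0.87 (95% interval -1.72 to -0.03), with overlapping groups. No GATA3 knockdown array was clear of the background for ITGB8, so the size of its difference is loosely set. STRAP, a receptor-associated inhibitor of the pathway, passed at 0.90. CRIM1, a membrane protein that binds BMPs, passed in HIF-1α knockdown at -0.95. These 4 calls were lost without some single arrays: DCN held in 6 of 9 such fits, ITGB8 in 3, STRAP in 5 and CRIM1 in 7.

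TGFB2-AS1, the non-coding RNA transcribed from the opposite strand beside TGFB2, was the fourth to pass in HIF-1α knockdown. It was 10.92, 11.13 and 11.25 in si-Control, 10.26, 10.80 and 10.16 in HIF-1α knockdown and 10.82, 10.91 and 11.38 in GATA3 knockdown. Its difference was -0.70 (95% interval -1.29 to -0.11) in HIF-1α knockdown, lower on all 3 slides, and -0.06 in GATA3 knockdown. The call held in 5 of the 9 fits that left out an array. The knockdowns differed by 0.64 for TGFB2-AS1 (95% interval 0.05 to 1.22), whereas they differed by 0.02 for TGFB2 itself.

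**Figure D4:**
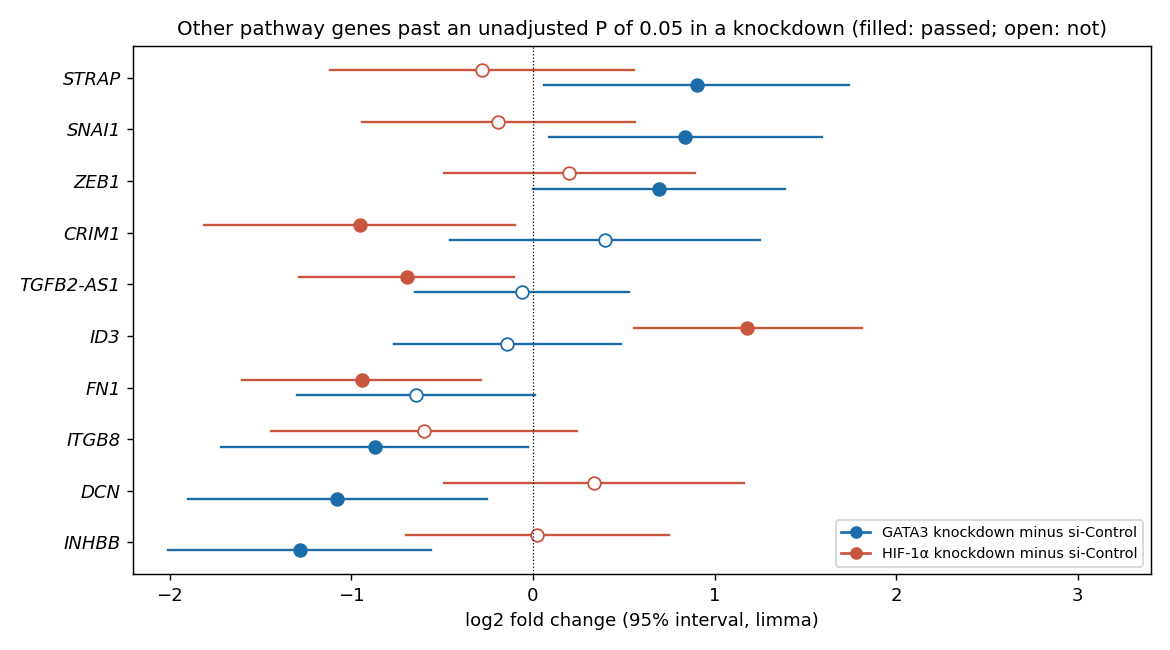
Log2 fold change with 95% interval (limma) of 10 further pathway genes that passed an unadjusted P of 0.05 in either knockdown against si-Control, with filled points where they passed. No gene shown is filled in both, INHBB has the widest difference shown in GATA3 knockdown (-1.28), and ID3 in HIF-1α knockdown (1.18).

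Between the knockdowns, 16 of the 81 pathway genes passed, 11 higher and 5 lower in GATA3 knockdown, or 19.8%, where all genes gave 12.0%, and with the slide as a block 27 passed, where all genes gave 18.7%. Among the widest were DCN (-1.41), CRIM1 (1.35), ID3 (-1.32), INHBB (-1.31), STRAP (1.18), NEDD4L (1.08) and BMP7 (-1.06). NEDD4L, a ubiquitin ligase for activated SMADs, rested on 1 of 3 probes, the others giving 0.40 and -0.15, and BMP7, a BMP ligand, likewise, with 0.09 and 0.22. In the fits without 1 array NEDD4L passed in 3 of 9 and BMP7 in 6. Of the 14 SMAD adaptors, inhibitors and ubiquitin ligases 4 passed, all higher, and 12 lay higher, with a median of 0.75. The 8 activin and BMP ligands all lay lower, with a median of -0.44, against a median of 0.00 over all genes. Among them GDF11 differed by only -0.06, and BMP2 by -0.01 with no array clear of the background. Of the 8 receptors 7 lay higher, with a median of 0.74. The BMPR2 probe cleared the background on only 1 array of HIF-1α knockdown. In these classes 2 ligands and 1 receptor, BMPR2, passed. The differences of regulators and receptors were uneven over slides. On slides 1, 2 and 3, ACVR2B differed by 1.61, -0.17 and 1.55 and USP15 by 0.45, -0.57 and 0.60, while STRAP was higher on all 3. Median spot intensity was 1627 in GATA3 and 3560 in HIF-1α knockdown on slide 1, and 1410 and 2502.5 on slide 3. On slide 2 it was 2452 and 2132. The cause was not tested.

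The genes whose values over the 9 arrays were most like those of TGFB2 are given as a description. Among 15912 named genes well above background on every array, Pearson's r with TGFB2 was highest for PGAM4 (0.978), EFCAB14 (0.967), AP1M2 (0.961), APOBEC3C (0.954) and RTN2 (0.953). It was lowest for OR5D18 (-0.956), LOC101928525 (-0.929) and KRTAP10-10 (-0.919). Within the set TGFBR3 (0.837, rank 156) and TGFBI (0.776, rank 372) lay nearest to TGFB2, while TGFB1 (0.021) and SMAD7 (0.027) lay far from it. The 9 arrays share slides and a normalization, and the correlations run across the group differences on which the set was chosen.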

How the data were processed

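OEC-M1 RNA was hybridised to 9 Agilent arrays of 1 colour on 3 slides, each slide holding 1 array of each group. The authors deposited spot and local background intensity from Feature Extraction 10.5.1.1, and a table of log2 values equal to the processed intensity scaled to the 75th percentile. The number in each label was taken as the replicate number. In R 4.3.3 with limma 3.58.1, median intensities were corrected by normexp (offset 50), with non-uniform spots missing and quantile normalization between arrays. Control spots were excluded. The mean was taken over repeated spots. A gene was read from its brightest probe and named through a RefSeq accession, or by its array name where no symbol matched. Symbols make up 22439 of the 47753 names. Shares of all genes therefore include names without a symbol, while the members and measured pathway genes all have one. All 3 groups entered 1 model (lmFit, eBayes). The threshold was a two-sided unadjusted P of 0.05, as in the study's supplementary methods, and Benjamini-Hochberg adjustment ran over all genes. The fit was tested on simulated data. The number of arrays limits the precision.

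The members and gene lists were chosen with earlier results of these data known. Named are all members, the 2 silenced genes, pathway genes at an unadjusted P of 0.05 (at most the 8 largest in a comparison), and the 5 genes most and 3 least correlated with TGFB2. Outside this rule, GDF11, BMP2 and BMPR2 were named for small differences or dim signals, and ACVR2B and USP15 for uneven slides. KRT5, PECAM1 and PTPRC were named from the cell type markers. The values of 1 pathway gene that passed are not reported here, though it is in the counts. There were 25 alternatives, 9 of which left out an array.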

Additional observations from a re-analysis of the deposited data

How the results depend on the processing

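No called gene changed direction under the 25 alternatives, and TGFB2 stayed lower in both knockdowns, from -0.75 to -0.46 and from -0.79 to -0.44. After adjustment by limma 0 members and 0 pathway genes passed in each of the 3 comparisons. Of the 9 tested members, 1 passed in GATA3 knockdown. There 2 passed with non-uniform spots kept, 0 by Student's t-test and 4 with the brightness of arrays as a covariate. In HIF-1α knockdown 0 passed, with 1 in separate fits and 2 with the brightness covariate. Between the knockdowns 2 passed, and 1 with the processed signal at the 75th percentile, the authors' log2 table, the filter on dim probes (9 measured) or the brightness covariate. For the pathway list, the t-test gave 3 in GATA3 knockdown, and the brightness covariate 16 there and 9 in HIF-1α knockdown. The cause was not tested.

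Leaving out 1 array gave 1 to 4 members (4 without si-Control replicate 3, 2 without si-Control replicate 1) and 3 to 15 pathway genes in GATA3 knockdown, with 15 without si-Control replicate 3, 3 without si-Control replicate 2 or GATA3 knockdown replicate 3, and 4 without si-Control replicate 1 or HIF-1α knockdown replicate 3. It gave 0 to 1 members (1 without si-Control replicate 1 or 3 or GATA3 knockdown replicate 3) and 2 to 12 pathway genes in HIF-1α knockdown, with 12 without si-Control replicate 1 and 2 without HIF-1α knockdown replicate 1. Between the knockdowns it gave 0 to 3 members and 8 to 22 pathway genes, with 0 members without GATA3 knockdown replicate 1 or 3 or HIF-1α knockdown replicate 1, 1 member without HIF-1α knockdown replicate 3, 8 pathway genes without GATA3 knockdown replicate 3 and 9 without HIF-1α knockdown replicate 1. The share of all genes passing moved too, from 2% to 12.7%, 2.98% to 10.1% and 5.7% to 20.5%.

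Same-numbered arrays share a slide. Their deviations from group means correlated above 0.1 in all 3 pairs of si-Control with GATA3 knockdown (0.216 to 0.723). In each of the other comparisons this held in 2 of 3 pairs (lowest 0.066 and -0.189). Arrays of different numbers could correlate more: si-Control replicate 1 reached 0.474 with GATA3 knockdown replicate 2, against 0.216 with replicate 1. Deviations from a mean of 3 arrays are also tied to each other, so these values do not settle the pairing. With the replicate block 2 members and 14 pathway genes passed in GATA3 knockdown, 10 pathway genes in HIF-1α knockdown, and 4 members and 27 pathway genes between the knockdowns.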
